A study of Mus musculus with 96 samples.

Results

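The genes described here are 10 targets of beta-catenin in mouse liver, followed by symbol through every library of a series on liver tumours, their metastases and organoids. All 10 symbols were found among the 34591 gene rows of the count files. 5 of them, Axin2, Lgr5, Sp5, Nkd1 and Notum, encode feedback regulators or common targets of Wnt signalling, and 5, Glul, Oat, Slc1a2, Rhbg and Tbx3, mark the hepatocytes that lie around the central vein.

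Wnt ligands bind Frizzled and Lrp receptors at the cell surface, which stops the complex of Axin, Apc and Gsk3 from marking beta-catenin for destruction. Beta-catenin then enters the nucleus, joins TCF/LEF factors on DNA and switches on target genes, some of which encode proteins that damp the pathway again. In the adult liver, endothelial cells of the central vein supply Wnt ligands and R-spondin, and the hepatocytes next to them express a set of target genes that serve glutamine synthesis and ammonium handling. Activated beta-catenin is a common feature of human hepatoblastoma and of a share of hepatocellular carcinoma.

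RNA was sequenced in 96 libraries in 14 groups. Dissected tissue comprised normal liver (n = 6), PPTR primary tumours (n = 11) and their metastases (n = 5), PNR primary tumours (n = 9), and LCS-driven primary tumours (n = 10) with lung (n = 5) and peritoneal (n = 3) metastases. HBS1-driven (n = 2) and HBS1_F2-driven (n = 2) primary tumours and HBS1_F2-driven metastases of the peritoneum (n = 3) were dissected too. Cultured organoids, which are small three-dimensional cultures of liver cells, comprised normal liver organoids (n = 6), LCS organoids (n = 19 from 5 lines), HBS organoids (n = 11 from 6 lines) and HBS1_F2 organoids (n = 4). The PPTR metastases came from intestine (1 and 3), lung (2), peritoneum (4) and within the liver (5). The labels state no treatment for any group. They give no strain, genotype or age, do not expand PPTR, PNR, LCS, HBS or F2, and do not say how a tumour called driven was made. Of the 7 tumours and metastases named after HBS1, 2 carry the name of organoid line HBS1 and 5 that of line HBS1_F2. Whether 2 libraries of a group came from different animals is not stated either, so p-values measure only the spread between libraries, which may be technical.

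Levels are given as counts per 1000000 (CPM) adjusted by TMM, a scaling that sets the bulk of genes equal between libraries, and they are compared between samples of the same gene only. Library totals ran from 4393199 to 87058563 counts, the lowest being LCS-driven peritoneal metastasis 1, in which ribosomal repeats took 34.9%. Several properties of the libraries moved with the groups. The share of counts in ribosomal repeats was 10.7% to 25.8% in normal livers, 0.21% to 18.3% in PPTR and 0.925% to 2.12% in PNR primary tumours. The processed copy Rpl34-ps1 took 75.7% to 80.3% of the joint Rpl34 counts in normal livers 1 to 5 but 7.8% in liver 6, 81.3% to 86.6% in PPTR and 5.08% to 8.48% in PNR primary tumours. HBS1_F2 organoid 2 stood apart from its group in the same measure, with 84.8% against 8.11% to 19.3% in the other 3. Whatever set this share cannot be told apart from the difference between PNR and PPTR tumours. LCS organoids, at 71.7% to 87.1%, did not overlap normal liver organoids (7.14% to 8.7%) or HBS organoids (5.06% to 8.39%). LCS-driven primary tumours (77.4% to 89.9%) did not overlap HBS1-driven (14.3% to 30.6%) or HBS1_F2-driven primary tumours (13.2% to 14.3%). In those comparisons, and between livers 1 to 5 and PNR tumours or normal organoids, share and group cannot be told apart either. PNR tumours 7 and 9 stood apart from the other 7 in the target genes themselves, as described next, and PPTR tumours 10 and 11 carry identifiers with another sample-type code than the rest, so the affected results are given with and without these libraries and normal liver 6. Whether the labels of PNR tumours 7 and 9 and HBS1_F2 organoid 2 are right could not be settled from the files, so values over all 9 PNR tumours are those of the libraries so labelled.

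**Figure D1:**
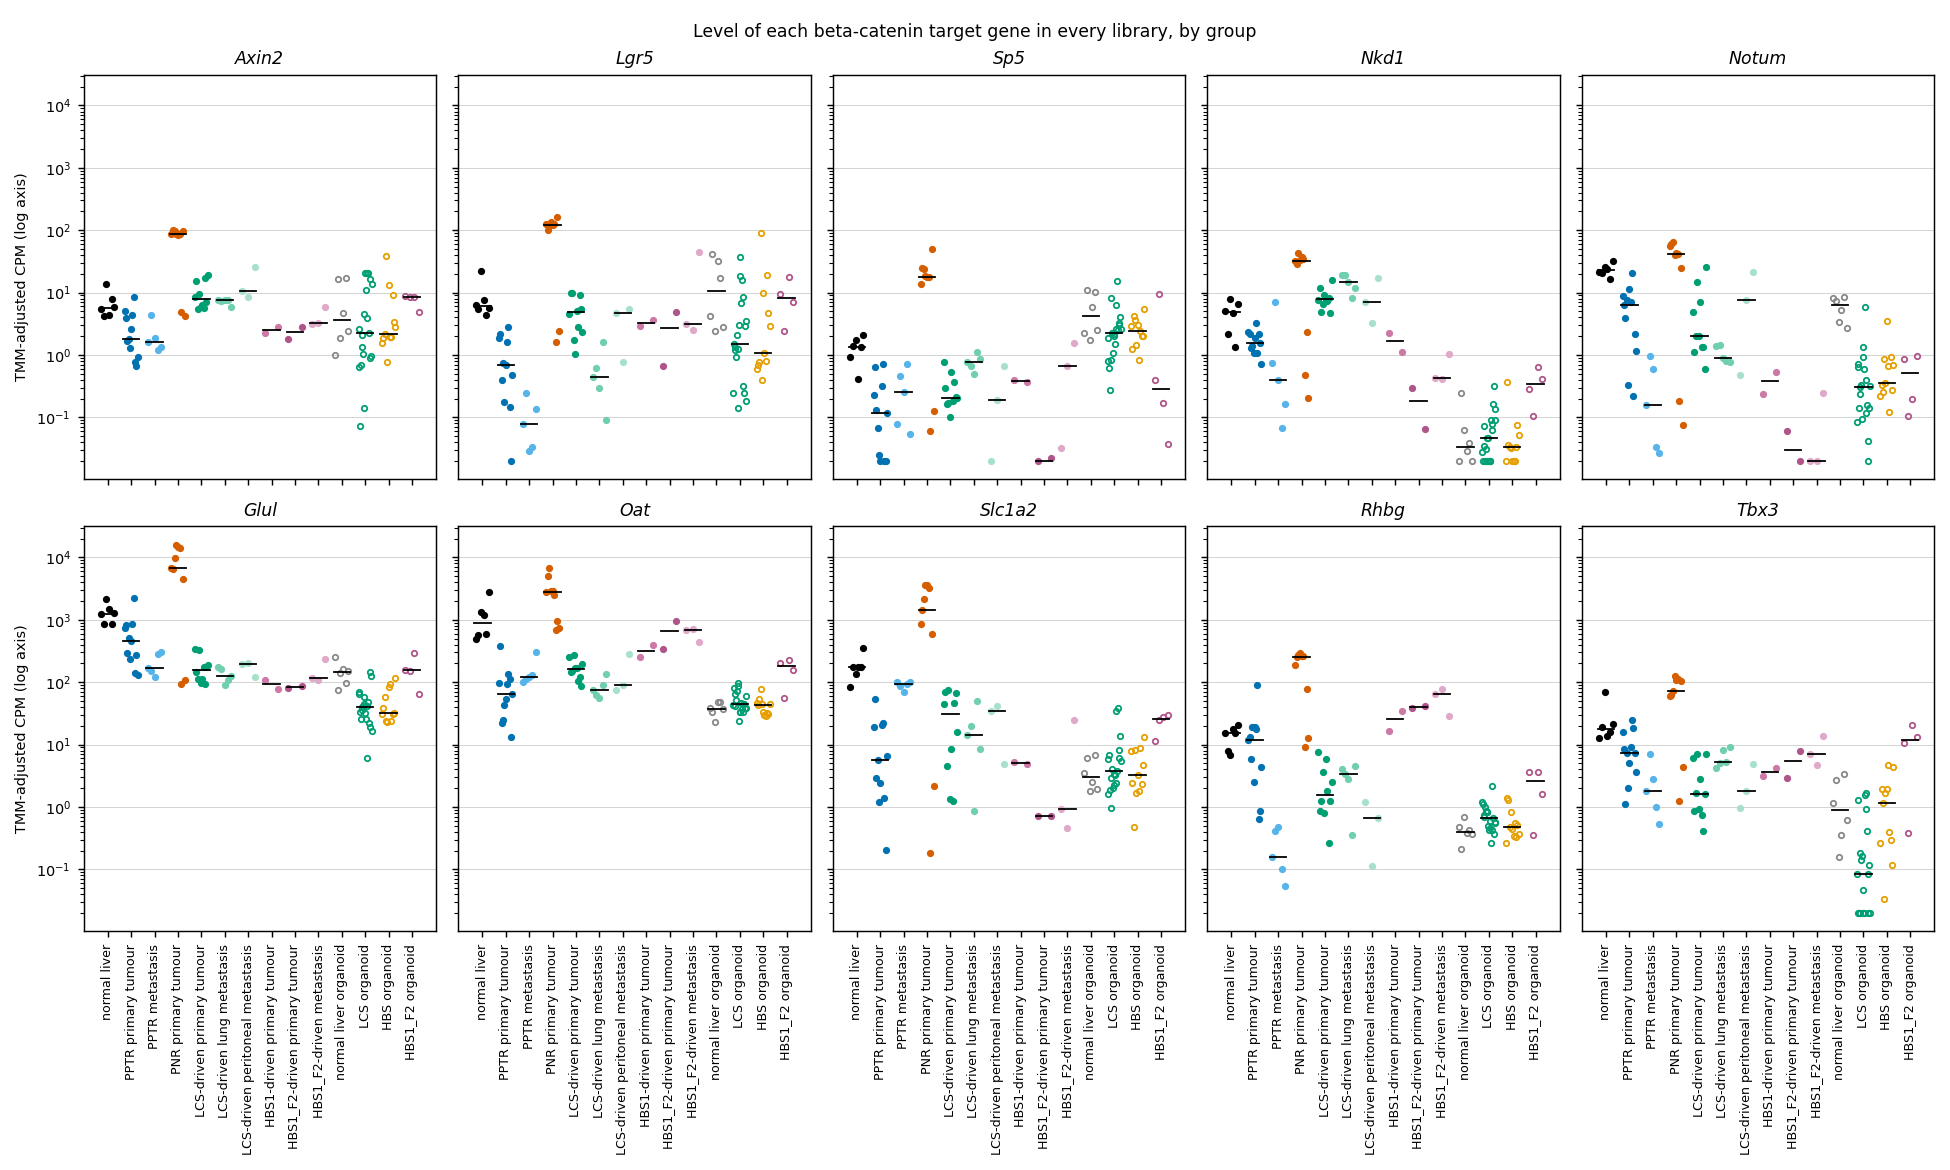
Level of each of the 10 genes in all 96 libraries on a log axis of TMM-adjusted CPM, with 1 point per library, a bar at the group median, filled points for tissue and open points for organoids, and values under 0.02 CPM drawn at 0.02. For Axin2 and Lgr5, 7 of the PNR primary tumours sit at 84.4 CPM or above and 2 sit at 4.97 or below.

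In PNR primary tumours the feedback genes and the pericentral genes were both high. 6 of 10 genes rose against normal liver and 0 fell, where 47.7% of all 15739 genes tested were called in either direction, 26.4% higher and 21.3% lower (edgeR's quasi-likelihood test, Benjamini-Hochberg adjusted p under 0.05). The median fitted log2 fold change of the 10 genes was 2.8, against 0.11 over all genes tested. Axin2, Lgr5, Sp5, Glul, Slc1a2 and Rhbg were called, and Nkd1, Notum, Oat and Tbx3 were not. With library totals in place of TMM Nkd1 (adjusted p = 0.0204), Oat (0.0142) and Tbx3 (0.0416) were called as well, DESeq2 called 8 genes with Nkd1 and Oat added, and with no filter on low counts Slc1a2 was not called (adjusted p = 0.0562). Once the share of ribosomal repeats was added as a covariate, 0 of the 10 were called, and 3 of all genes. The shares of the livers and of these tumours do not overlap, so share and group cannot be told apart. Without normal liver 6 there were again 6 calls, with Oat (1.6, adjusted p = 0.026) in place of Slc1a2 (3.37, adjusted p = 0.0588). The 9 tumours were not alike. Tumours 2 and 3, tumours 4 to 6, and tumours 7 and 9 matched closely, with a standard deviation of log2 ratios over genes of 0.219 to 0.32. Whether such a set came from a single tumour is not stated, so the 9 may be fewer independent units.

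Axin2, a scaffold of the destruction complex and a general feedback target of the pathway, was at 4.29 to 14 CPM in normal liver (median 5.65). It was at 84.4 to 99.8 CPM in 7 PNR tumours, at 4.97 in tumour 7 and at 4.27 in tumour 9. The 7 tumours, some of which matched closely over all genes, lay within a narrow band above every liver. Tumour 7 lay within the range of liver and tumour 9 just below it. The fitted log2 change over all 9 was 3.25 ± 0.65 (standard error; adjusted p = 0.000961). Lgr5, a receptor for R-spondins and a stem cell marker of several epithelia, was at 4.32 to 21.9 CPM in liver (median 6), 102 to 161 in the 7 tumours, 1.62 in tumour 7 and 2.41 in tumour 9. Both latter tumours were below every liver. The fitted change was 3.41 ± 0.83 (adjusted p = 0.00367).

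Sp5, a zinc finger repressor that damps Wnt target genes, was at 0.419 to 2.1 CPM in liver (median 1.37). It was at 13.8 to 50.5 CPM in the 7 PNR tumours, with tumour 8 highest, and at 0.0599 and 0.128 in tumours 7 and 9 (3.66 ± 0.98, adjusted p = 0.00651). Here too the 7 tumours exceeded every liver and the other 2 fell short of every liver. Nkd1, a Dishevelled-binding inhibitor, was at 1.34 to 7.9 CPM in liver (median 4.87), 28.8 to 43.4 in PNR tumours 1 to 6, 2.3 in tumour 8, 0.479 in tumour 7 and 0.205 in tumour 9. Tumour 8 was thus within the range of liver for this gene, although it was high for Axin2, Lgr5 and Sp5. The fitted change was 2.22 ± 0.9 (adjusted p = 0.0517). Notum, a secreted enzyme that strips the lipid from Wnt ligands, was at 16.8 to 32.5 CPM in liver (median 22.7), at 40.2 to 63.8 in tumours 1 to 6, at 25.2 in tumour 8, at 0.18 in tumour 7 and at 0.0768 in tumour 9. It was the least raised of the feedback genes in the first 6 tumours and the most reduced in tumours 7 and 9, and the fitted change was 0.5 ± 0.81 (adjusted p = 0.63).

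The promoters of Axin2, Sp5 and Slc1a2 are printed because the first 2 are feedback targets that were high in the same 7 PNR tumours and the third is the pericentral gene with the widest range. 6 of the 10 genes have a promoter in the RefSeq table used (assembly GRCm38.p6), namely Axin2, Sp5, Nkd1, Glul, Oat and Slc1a2. Lgr5, Notum, Rhbg and Tbx3 have no entry there. The 250 bases before each gene's start were searched on both strands for CTTTGAA as well as CTTTGAT, and also for CTTTGTA as well as CTTTGTT, which are forms of the core that TCF/LEF factors bind, and capitals mark each match. The windows are chr11:108920099-108920348 for Axin2, chr2:70474673-70474922 for Sp5 and chr2:102706188-102706437 for Slc1a2, all on the plus strand of that assembly, which is not the mm9 build named for the counts.
Axin2: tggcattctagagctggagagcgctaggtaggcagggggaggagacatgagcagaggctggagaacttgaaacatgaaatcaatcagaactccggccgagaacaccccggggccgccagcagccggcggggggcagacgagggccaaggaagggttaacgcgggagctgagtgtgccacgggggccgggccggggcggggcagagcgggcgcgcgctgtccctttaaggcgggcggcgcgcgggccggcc
Sp5: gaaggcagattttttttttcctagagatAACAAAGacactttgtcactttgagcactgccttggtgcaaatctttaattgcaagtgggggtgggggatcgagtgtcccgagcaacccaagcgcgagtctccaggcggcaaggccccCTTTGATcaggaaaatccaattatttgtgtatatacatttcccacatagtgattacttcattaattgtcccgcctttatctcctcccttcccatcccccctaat
Slc1a2: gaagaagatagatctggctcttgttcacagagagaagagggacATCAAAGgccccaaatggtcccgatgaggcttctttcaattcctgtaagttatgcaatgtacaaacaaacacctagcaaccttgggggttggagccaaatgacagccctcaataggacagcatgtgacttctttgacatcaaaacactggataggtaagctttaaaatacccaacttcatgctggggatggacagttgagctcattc
Sp5 held 2 matches, CTTTGTT on the opposite strand starting 222 bases before the gene start and CTTTGAT on the same strand 104 bases before it. Slc1a2 held 1, CTTTGAT on the opposite strand 207 bases before the start. The windows of Axin2, Nkd1, Glul and Oat held 0. Of 32851 promoters in the table, 4874 (14.8%) held at least 1 match and 469 (1.43%) held at least 2. A match is a run of letters and no shown binding site, and a window with 0 says nothing of sites elsewhere.

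The pericentral genes followed the same split of the PNR tumours. Glul, glutamine synthetase, the classic marker of the hepatocytes next to the central vein, was at 845 to 2160 CPM in liver (median 1260). It was at 4540 to 15900 CPM in 7 PNR tumours, 93.1 in tumour 7 and 110 in tumour 9 (2.5 ± 0.85, adjusted p = 0.0248). No tumour of the 9 overlapped the livers, since 7 lay above and 2 below all of them. Reads of Glul may be shared with its copy Glns-ps1, which held 0% to 2.17% as many counts as Glul in the libraries of the series. Slc1a2, a glutamate transporter, was at 83.7 to 348 CPM in liver (median 175), at 595 to 3640 in the 7 tumours, at 0.18 in tumour 7 and at 2.15 in tumour 9. The gap between the 7 and the other 2 was wider for this gene than for the other 9. The fitted change was 3.1 ± 1.22 (adjusted p = 0.046).

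Rhbg, an ammonium transporter, was at 6.81 to 20.8 CPM in liver (median 15.3), at 78.1 to 298 in the 7 PNR tumours and at 9.22 and 12.9 in tumours 7 and 9. In contrast to Glul and Slc1a2, the latter 2 lay within the range of liver. The fitted change was 3.56 ± 0.7 (adjusted p = 0.000845). Oat, ornithine aminotransferase, was at 488 to 2780 CPM in liver (median 887), at 942 to 6670 in the 7 tumours, and at 674 and 734 in tumours 7 and 9. All 9 tumours overlapped the range of liver or exceeded it, and tumour 8, at 942 CPM, was close to the median of liver (1.15 ± 0.53, adjusted p = 0.0848). Tbx3, a T-box transcription factor induced by beta-catenin in liver, was at 12.6 to 68.7 CPM in liver (median 17.6), at 59.3 to 124 in the 7 tumours and at 1.26 and 4.3 in tumours 7 and 9 (1.41 ± 0.72, adjusted p = 0.117).

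Set against the range of the 6 livers, PNR tumours 1 to 6 and 8 had 7 to 10 of the 10 genes above that range and 0 below it. Tumour 7 had 0 above and 7 below, and tumour 9 had 0 above and 8 below. Of all 15739 genes tested, 34.6% to 37.6% were above every liver in each of the first 7 tumours and 21.1% to 30.5% below. In tumour 7 the shares were 32.7% above and 27.8% below, and in tumour 9 they were 37.8% and 24.6%. The median of the 7 tumours divided by the median of tumours 7 and 9 was 4.06 for Oat, 19.1 for Axin2, 23.5 for Rhbg, 37.4 for Tbx3, 61.7 for Lgr5, 96.6 for Nkd1, 97.1 for Glul, 194 for Sp5, 333 for Notum and 1830 for Slc1a2. The size of the gap therefore ran over more than 2 orders of magnitude among the genes. Tumours 7 and 9 were set apart by these same values, so what follows without them is a description and no independent test. Without them 10 of 10 genes were called higher than in liver, where 46.9% of genes tested were called in either direction, and the fitted log2 changes were 3.59 ± 0.25 for Axin2, 3.77 ± 0.35 for Lgr5, 4.01 ± 0.39 for Sp5, 2.58 ± 0.53 for Nkd1 and 0.87 ± 0.19 for Notum. They were 2.86 ± 0.36 for Glul, 1.42 ± 0.47 for Oat, 3.47 ± 0.49 for Slc1a2, 3.9 ± 0.35 for Rhbg and 1.76 ± 0.38 for Tbx3. The standard errors of all genes but Oat were smaller by more than 1.5 times than with all 9 tumours, and Nkd1, Notum, Oat and Tbx3 changed from not called to called.

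**Figure D2:**
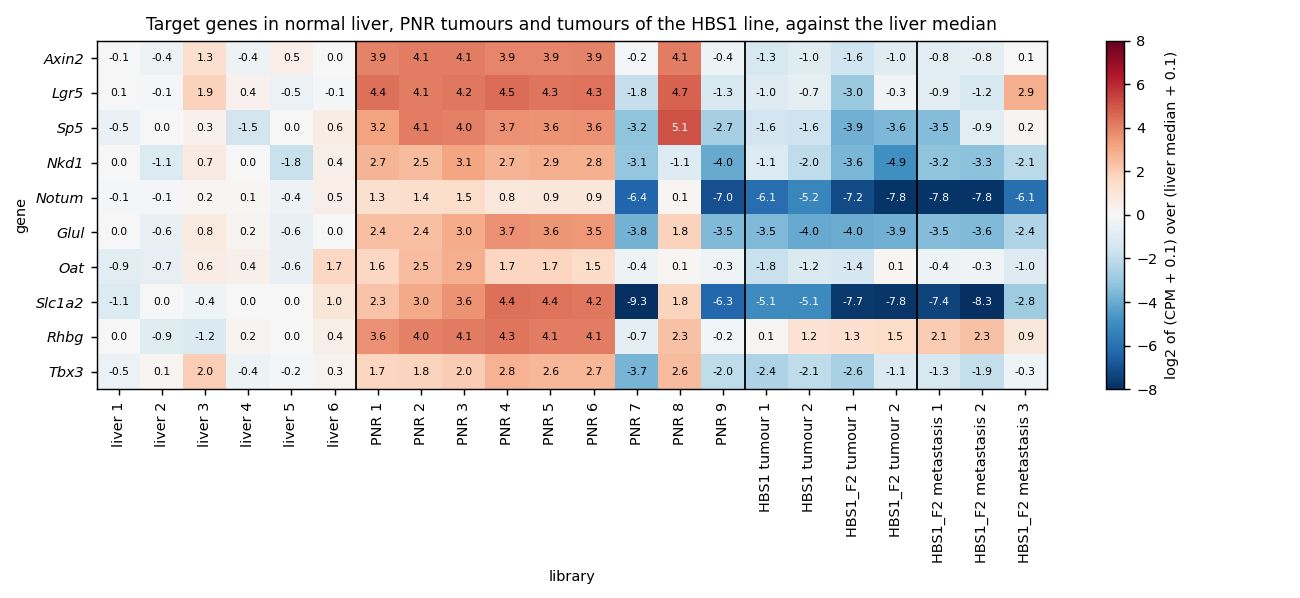
Each cell gives the log2 ratio of the CPM of 1 library to the median of normal liver, with 0.1 CPM added to both, for the 10 genes in normal livers, PNR tumours and the tumours and metastases named after HBS1 or HBS1_F2. PNR tumours 7 and 9 are blue for Glul, Slc1a2 and Sp5 where the other PNR tumours are red, and all 7 libraries named after HBS1 or HBS1_F2 are blue for Notum, Glul and Slc1a2.

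Other markers differed in the same 2 tumours. The summed level of 8 biliary genes was 13200 CPM in PNR tumour 7 and 16300 in tumour 9, against 721 to 1280 in tumours 1 to 6 and 5600 in tumour 8. The sum of 12 other pericentral genes was 2850 and 3470 CPM in tumours 7 and 9, against 5260 in tumour 8 and 10500 to 21400 in the others. The sum of 12 periportal genes, of the hepatocytes at the other end of the lobule, was 7000 and 8040 against 743 to 3660. Hepatocyte markers did not set them apart, with 34100 and 41600 CPM against 17400 to 48200, and neither did beta-catenin itself (Ctnnb1), with 641 and 705 CPM against 466 to 730. In bulk tissue, fewer cells of a type and less RNA per cell cannot be told apart, and the part of these markers in the split was not tested. By their identifiers, PNR tumours 1 to 7 fell in a single block, and tumours 8 and 9 in a block each.

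Among the other genes of the pathway in PNR tumours against liver, 6 of 12 receptors and receptor ligases rose and 1 fell. Znrf3 (2.07 ± 0.33) and Rnf43 (1.54 ± 0.43), ligases that remove Frizzled receptors and are themselves targets of the pathway, were among those that rose, as was the co-receptor Lrp5 (1.34 ± 0.26). 5 of 7 TCF/LEF factors and cofactors rose and 0 fell, with Tcf7 at 1.86 ± 0.6 and the beta-catenin cofactor Bcl9l at 1.42 ± 0.22. 7 of 9 other common targets rose, among them the transcription factors Sox9 (4.23 ± 0.53) and Sox4 (4.2 ± 0.48) and cyclin D1 (Ccnd1, 2.09 ± 0.36). Sox9 is also a biliary marker. Of the ligands, 1 of 6 rose and 3 fell, with Wnt2 at -5.84 ± 0.55, and the R-spondin Rspo3 fell by 5.02 ± 0.45, both of which endothelium makes in liver. Of 7 endothelial markers 4 fell and 0 rose in the same comparison, with sums of 89.4 to 573 CPM against 425 to 619 in livers, and their part in the fall of these genes was not tested.

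The other pericentral genes moved in both directions in PNR tumours. Of these, 2 of 12 rose and 3 fell, with a median log2 change of -0.72, and Ahr, the aryl hydrocarbon receptor, rose by 1.73 ± 0.47 while the calcium-binding protein Rgn fell by 2.45 ± 0.35. Of 12 periportal genes 1 rose and 7 fell, including the urea cycle enzyme Cps1 (-4.01 ± 0.74) and the cytochrome Cyp2f2 (-6.5 ± 0.88).

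In PPTR primary tumours most of the same genes were lower than in liver. 8 of 10 fell and 0 rose, where 31.1% of 15305 genes tested were called in either direction and 13.8% were called lower. The median log2 change of the 10 genes was -1.79, against 0.03 over all genes. This comparison shares its 6 livers with the others against normal liver, so their values stand side by side here without a count of shared calls. Glul and Rhbg were not called.

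Among the feedback genes, Lgr5 ran from 0 to 2.86 CPM in PPTR tumours (median 0.68), below every liver, and fell by 3.2 ± 0.66 (adjusted p = 0.00168). Sp5 was at 0 to 0.715 CPM (median 0.118), overlapping the lowest liver at 0.419, and fell by 2.88 ± 0.74 (adjusted p = 0.00729). Nkd1 was at 0.707 to 3.21 CPM (median 1.53) and fell by 1.57 ± 0.32 (adjusted p = 0.00158). Groups overlapped for Nkd1, as for Axin2 and Notum. Axin2 was at 0.66 to 8.58 CPM (median 1.8; -1.39 ± 0.49, adjusted p = 0.0399), and Notum at 0.22 to 20.3 (median 6.28; -2 ± 0.64, adjusted p = 0.0246).

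Of the pericentral genes, Oat was at 13.3 to 377 CPM (median 63.6) and fell by 3.74 ± 0.58 (adjusted p = 0.000198). Slc1a2 was at 0.206 to 53.7 CPM (median 5.72) and fell by 4.02 ± 0.77 (adjusted p = 0.00101). For both, as for Lgr5, every tumour was below every liver, which held for 1.65% of genes tested. Tbx3 was at 1.13 to 24.4 CPM (median 7.22) and fell by 1.53 ± 0.53 (adjusted p = 0.0345). Glul was at 130 to 2220 CPM (median 458; -1.18 ± 0.51, adjusted p = 0.0847), with tumour 8 above every liver. Rhbg was at 0.636 to 91.6 CPM (median 12), a wider range than that of liver on both sides, and its log2 change of 0.23 ± 0.8 had a 95% interval from -1.34 to 1.79 (adjusted p = 0.855).

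PPTR tumour 8 was the highest of the 11 for 7 of the 10 genes. It had 8.58 CPM of Axin2, 2.86 of Lgr5, 0.715 of Sp5 and 20.3 of Notum among the feedback genes. Among the pericentral genes it had 2220 CPM of Glul, 91.6 of Rhbg and 24.4 of Tbx3. It was not the highest for Nkd1, Oat and Slc1a2. The same tumour had the highest ribosomal-repeat share of the group, 18.3%, and the lowest summed hepatocyte markers, 39200 CPM against 67300 to 152000 in the other 10. PPTR tumour 10 was the lowest of the group for 4 genes.

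Without PPTR tumours 10 and 11 the calls went from 8 to 5, as Axin2 (-1.18, adjusted p = 0.0697), Notum (-1.79, adjusted p = 0.0504) and Tbx3 (-1.41, adjusted p = 0.0749) passed to the other side of the threshold. Without normal liver 6, 7 genes were called and Axin2 was not (-1.45, adjusted p = 0.0534). Axin2 and Tbx3 also lost their calls within shared identifier blocks (adjusted p = 0.0752 and 0.0582), with no filter on low counts (0.0623 and 0.0504) and with library totals in place of TMM (0.106 and 0.0895). Once the share of ribosomal repeats was added as a covariate, 3 genes (Nkd1, Oat and Slc1a2) were called lower. Of the 12 other pericentral genes 9 fell and 0 rose in PPTR tumours (median -2.36), with the alcohol-inducible cytochrome Cyp2e1 at -4.19 ± 0.9 and Cyp7a1, which starts the making of bile acids from cholesterol, at -3.91 ± 0.62. Of the 12 periportal genes 7 fell and 1 rose (median -1.88), with the gluconeogenic enzyme Pck1 at -3.61 ± 0.6, so genes of both ends of the lobule fell. Rnf43 fell by 1.5 ± 0.3 and Rspo3 by 1.43 ± 0.51, whereas the common target list had 3 of 9 genes higher and 0 lower, led by Sox4 (3.34 ± 0.36).

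The direct comparison of PNR with PPTR primary tumours, which shares no control, had all 10 genes higher in PNR, where 50.7% of 15645 genes were called in either direction and 26.5% were called higher. The fitted log2 differences ran from 2.51 ± 0.82 for Notum to 7.12 ± 1.24 for Slc1a2, with 4.65 ± 0.6 for Axin2 and 6.64 ± 0.83 for Lgr5. Oat was the gene whose groups did not overlap (4.88 ± 0.6, adjusted p = 2.14e-06), where 4.07% of genes had every PNR tumour higher, as its lowest PNR value, 674 CPM in tumour 7, exceeded the highest PPTR value, 377 CPM. PNR tumours 7 and 9 lay within the PPTR range for Axin2, Lgr5, Sp5, Rhbg and Tbx3, and at least 1 of them lay below it for Nkd1, Notum, Glul and Slc1a2. Without these 2 tumours all 10 genes stayed higher, with differences from 2.89 ± 0.62 for Notum to 7.51 ± 0.9 for Slc1a2. The 2 were set apart by their low values of these genes, so that fit is a description and no independent test. Of 11 receptors and ligases 9 were higher in PNR tumours and 0 lower, including Rnf43 (3.05 ± 0.34) and Znrf3 (2.7 ± 0.26), and 6 of 12 other pericentral genes were higher and 0 lower, with Cyp1a2 at 3.6 ± 0.96 and Cyp2e1 at 3.41 ± 0.85. No identifier block holds both PNR and PPTR tumours, or both PNR tumours and livers, so that block and model cannot be told apart.

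**Figure D3:**
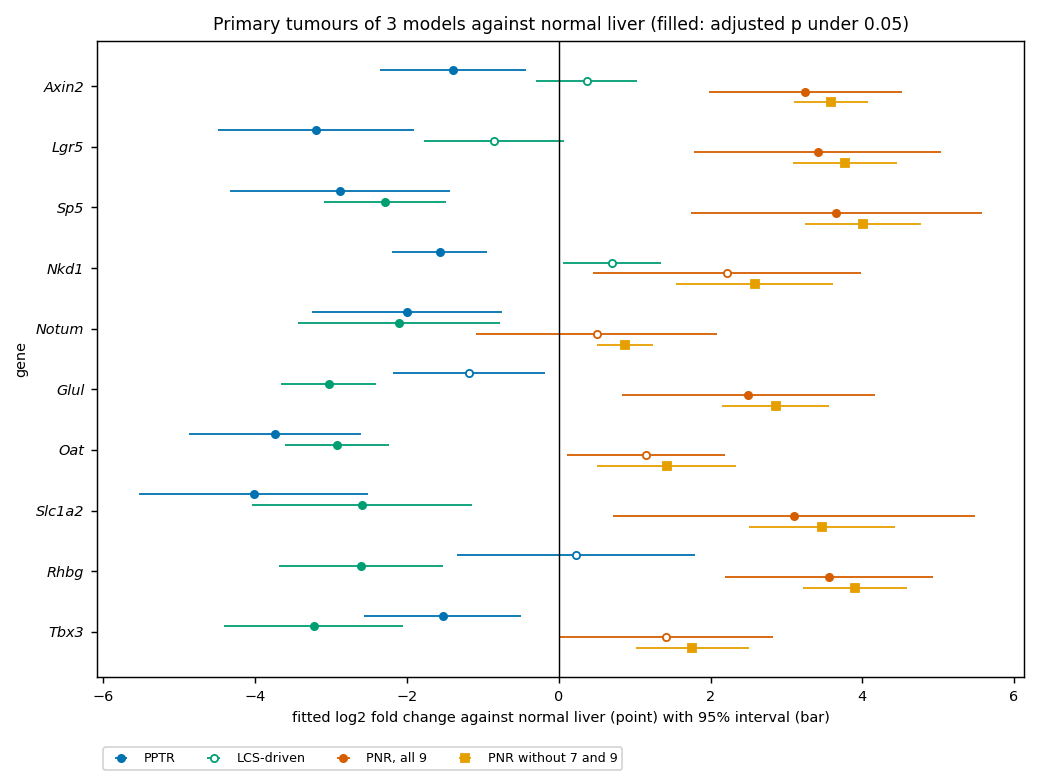
Fitted log2 fold change against normal liver (point) with its 95% interval (bar) for each gene in PPTR, LCS-driven and PNR primary tumours, and in PNR tumours without tumours 7 and 9, with filled symbols at an adjusted p under 0.05. PPTR and LCS-driven points of Sp5, Notum, Oat and Slc1a2 lie left of 0 and the PNR points of all 10 genes lie right of it.

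In LCS-driven primary tumours all 5 pericentral genes fell, and the feedback genes Axin2, Lgr5 and Nkd1 were not called. Against normal liver 7 of 10 genes fell and 0 rose, where 63.4% of 16426 genes were called in either direction and 28.3% were called lower. The feedback genes Sp5 and Notum made up the 7, and the same number was called without normal liver 6, while 4 were called with the share of ribosomal repeats as a covariate. With that covariate Sp5, Glul and Oat kept their calls, Notum (adjusted p = 0.852), Slc1a2 (0.314), Rhbg (0.268) and Tbx3 (0.258) lost theirs, and Lgr5 was called lower (-3.34, adjusted p = 0.036). The share was 0.159% to 6.3% in these tumours and 10.7% to 25.8% in livers. As the 2 ranges do not overlap, share and group cannot be told apart in that fit. Glul was at 93.6 to 345 CPM (median 159; -3.03 ± 0.32, adjusted p = 6.46e-07), Oat at 86.8 to 269 (median 161; -2.92 ± 0.35, adjusted p = 2.93e-06) and Slc1a2 at 1.25 to 73.8 (median 30.5; -2.59 ± 0.74, adjusted p = 0.00571). For these 3 genes every tumour lay below every liver, which held for 11.3% of genes tested. Tbx3 was at 0.414 to 7.18 CPM (median 1.64; -3.23 ± 0.6, adjusted p = 2e-04), again below every liver, and Rhbg at 0.268 to 7.64 (median 1.55; -2.61 ± 0.55, adjusted p = 0.000561), overlapping the lowest liver.

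Axin2 was at 5.43 to 19.1 CPM in LCS-driven tumours (median 7.78; 0.37 ± 0.34, adjusted p = 0.356) and Nkd1 at 4.8 to 15.9 (median 7.8; 0.7 ± 0.33, adjusted p = 0.0718). Both overlapped the range of liver, and neither was called. Lgr5 was at 1.04 to 10 CPM (median 4.87; -0.85 ± 0.47, adjusted p = 0.127), also overlapping. Sp5 fell by 2.29 ± 0.41, from a median of 1.37 CPM in liver to 0.207, and Notum fell by 2.11 ± 0.68, with tumours 4 and 10 at 14.8 and 25.7 CPM and the other 8 at 0.598 to 7.14.

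The calls of the feedback genes in LCS-driven tumours depended on the scaling. The TMM factors were 0.543 to 0.766 in livers and 1.07 to 1.32 in these tumours, and with library totals in place of TMM the median log2 change of all genes moved from 0.13 to 1.17. On that scale Axin2 (1.37, adjusted p = 0.00308) and Nkd1 (1.67, adjusted p = 0.000793) were called higher, Notum (-1.19) and Slc1a2 (-1.51) were not called, and Lgr5 turned to 0.13. Glul, Oat, Rhbg, Sp5 and Tbx3 were called lower on both scales.

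Against PPTR tumours, where no liver is involved, LCS-driven tumours had 3 of 9 tested genes higher and 3 lower (background 56.6%, 28.6% higher and 28% lower). Nkd1 was higher by 2.25 ± 0.24 (adjusted p = 1.43e-07), with the 10 LCS-driven tumours all above the 11 PPTR tumours, which held for 5.68% of genes tested. The feedback genes Axin2 (1.72 ± 0.43) and Lgr5 (2.31 ± 0.6) were higher as well, and the pericentral genes Glul (-1.88 ± 0.46), Rhbg (-2.86 ± 0.78) and Tbx3 (-1.73 ± 0.57) were lower. Notum, Oat and Slc1a2 were not called. Sp5 did not pass the filter on low counts.

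Around them, 9 of 13 Wnt ligands rose and 1 fell in LCS-driven tumours against liver, among them Wnt7b (7.89 ± 0.7, from 0.307 to 75.1 CPM) and Wnt10a (8.53 ± 1.31). All 9 secreted inhibitors tested rose, with Wif1 at 8.75 ± 2.57 and Dkk2 at 6.51 ± 0.46, and 9 of 11 other common targets rose, with Nkd2 at 6.02 ± 0.71 and the hyaluronan receptor Cd44 at 3.41 ± 0.41. Ctnnb1 rose by 1.33 ± 0.2, from 452 to 1280 CPM. 11 of 12 other pericentral genes fell and 0 rose (median -4.02), and 10 of 12 periportal genes fell and 1 rose (median -3.32). All 10 hepatocyte markers fell in the same comparison, their sum going from 69900 to 126000 CPM in livers to 1660 to 51800 in tumours, and 7 of 8 biliary markers rose. Of 6 fibroblast and stellate markers 4 rose and 0 fell, with sums of 2350 to 82400 CPM in tumours against 213 to 588 in livers. The part of these markers in the changes of the targets, ligands and inhibitors was not tested.

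Tumours named after the HBS1 line had lower levels than PNR tumours in most of the 10 genes. The 2 HBS1-driven and 2 HBS1_F2-driven primary tumours together had 8 of 10 genes lower than PNR tumours and 0 higher, where 9.82% of 17166 genes were called in either direction, 4.59% higher and 5.23% lower. Glul was at 109 and 78.1 CPM in HBS1-driven and 79.4 and 85.8 in HBS1_F2-driven tumours (-6.52 ± 1.35, adjusted p = 0.016). Slc1a2 was at 5.18, 4.95, 0.723 and 0.705 CPM in the same order (-9.21 ± 2.22, adjusted p = 0.0249), and Axin2 at 2.22, 2.79, 1.81 and 2.86 (-4.91 ± 0.88, adjusted p = 0.00798). For Axin2 the groups did not overlap, and 2.75% of genes had every HBS1 tumour below every PNR tumour. For Glul and Slc1a2, PNR tumour 7 or 9 overlapped the HBS1 tumours. Rhbg, at 16.3, 34.9, 38.6 and 42.1 CPM, was not called (-2.45 ± 0.82, adjusted p = 0.0707), nor was Nkd1, at 2.22, 1.11, 0.301 and 0.0661 (-4.66 ± 1.41, adjusted p = 0.0524).

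Notum was at 0.234, 0.53, 0.0602 and 0 CPM in these 4 tumours and at 0.18 and 0.0768 in PNR tumours 7 and 9, and the biliary sum was 13500 to 23900 CPM against 13200 and 16300. Without PNR tumours 7 and 9 all 10 genes were lower than in the other 7, where 23.7% of genes were called. As the same genes had set tumours 7 and 9 apart, that count is no independent test. PNR tumour 9 was the only PNR library that shared an identifier block with HBS1 tumours. Within that block the differences of Lgr5 (0.38), Sp5 (0.14), Notum (1.37), Slc1a2 (0.03) and Tbx3 (0.25) turned to the other sign. That fit follows a single PNR tumour and says nothing of the others. PNR tumours 2 and 3, tumours 4 to 6, and tumours 7 and 9 matched closely, with a standard deviation of their log2 ratios over genes of 0.219 to 0.32. Once each of these sets was summed into 1 library, Axin2 alone was called. Leaving out any 1 of the 4 tumours left 1 to 3 calls, Axin2 among them each time. Of the other pericentral genes 8 of 12 were lower and 0 higher than in PNR tumours.

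Against LCS-driven tumours the HBS1 primary tumours had 2 of 10 genes higher, close to the 22.3% of all genes called higher. They had 5 lower, where 25.3% of all genes were (background 47.7% in either direction). The 2 were Oat and Rhbg. Oat was at 253, 389, 345 and 974 CPM in the 4 primary tumours, with a difference from LCS-driven tumours of 1.55 ± 0.34 (adjusted p = 0.00214), and that of Rhbg was 3.68 ± 0.62 (adjusted p = 0.000339). For Oat the lowest of the 4 lay within the LCS-driven range of 86.8 to 269 CPM. The 5 were Axin2, Nkd1, Notum, Glul and Slc1a2. Summed hepatocyte markers were 40200 and 73800 CPM in HBS1-driven and 35400 and 37900 in HBS1_F2-driven tumours, against 1660 to 51800 in LCS-driven tumours. Their part in these differences was not tested. Only HBS1-driven tumour 1 shared an identifier block with LCS-driven tumours, so no calls within blocks are given. Without HBS1_F2-driven primary tumour 1 the calls of Glul (-0.99, adjusted p = 0.08) and Slc1a2 (-3.23, adjusted p = 0.0725) were lost, as they were without HBS1_F2-driven tumour 2, and that of Glul was also lost without HBS1-driven tumour 2. In the HBS1_F2-driven metastases Oat was at 674, 721 and 436 CPM and Rhbg at 63.8, 76.9 and 28.2. All 7 tumours and metastases named after HBS1, of which 2 are HBS1-driven, exceeded the highest of the 4 HBS1_F2 organoids for both genes. The share of all genes that did so over the 7 was not counted. For the 5 that are HBS1_F2-driven it was 16.7%.

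HBS1_F2-driven tumours and metastases together (n = 5) were compared with HBS1_F2 organoids (n = 4), where 40.1% of 16255 genes were called, 18.5% higher and 21.6% lower, and where 2 of 9 tested genes rose and 1 fell. Rhbg rose from 3.65, 0.353, 3.58 and 1.64 CPM in the organoids to 28.2 to 76.9 in tissue (4.4 ± 0.71, adjusted p = 0.0022). Oat rose from 202, 56.7, 229 and 159 CPM to 345 to 974 (1.92 ± 0.46, adjusted p = 0.0108). The groups did not overlap for either gene, as for 16.7% of genes tested in that direction. All these libraries carry the name of a single line. Tissue and organoids share no identifier block, so block and kind of sample cannot be told apart. Axin2 fell from 8.84, 8.45, 8.52 and 4.88 CPM to 1.81 to 5.9 (-1.16 ± 0.39, adjusted p = 0.0383), and that call was lost when HBS1_F2-driven primary tumour 1 or 2, metastasis 1 or 2, or organoid 1 or 3 was left out (adjusted p from 0.0773 to 0.0875). Without HBS1_F2 organoid 2 the same number, 3, was called. Of the other pericentral genes 6 of 10 rose and 1 fell, 9 of 12 periportal genes rose, and 7 of 10 hepatocyte markers rose in the same comparison, and their part in the rise of Oat and Rhbg was not tested. The 3 metastases were not called different from the 4 HBS1-driven and HBS1_F2-driven primary tumours for any gene. That was 0 of 9 genes by edgeR, with 3 at an unadjusted p under 0.05, and 0 by DESeq2. Of all 15799 genes 0% were called, with 1271 at an unadjusted p under 0.05 and 165 by DESeq2.

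HBS1_F2-driven metastasis 3 stood apart in its group. It had 45 CPM of Lgr5 against 3.14 and 2.55 in the other 2, and 24.4 CPM of Slc1a2 against 0.915 and 0.468. Its Glul was 236 CPM against 115 and 107. Its summed hepatocyte markers were 9290 CPM against 36300 and 28500, and its Rhbg, at 28.2 CPM, was the lowest of the 3.

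Metastases were compared with primary tumours in 2 models. Against PPTR primary tumours, PPTR metastases had 1 of 9 tested genes higher and 3 lower, where 31.7% of 16246 genes were called, 15.5% higher and 16.3% lower. Slc1a2 rose to 99.7, 87.9, 68.7, 93.4 and 100 CPM in metastases 1 to 5, from 0.206 to 53.7 in primary tumours (2.85 ± 0.79, adjusted p = 0.0107). Every metastasis exceeded every primary tumour, which held for 5.08% of genes tested, and the 5 values were within a narrow band although the sites were intestine, lung, peritoneum and liver. Rhbg fell to 0.156, 0.407, 0.484, 0.102 and 0.0537 CPM, below every primary tumour, the lowest of which was at 0.636 (-6.22 ± 1.29, adjusted p = 0.00162). In 3.61% of genes tested every metastasis was lower.

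Lgr5 fell to 0.0779, 0.244, 0.0285, 0.0341 and 0.134 CPM in PPTR metastases (-3.24 ± 0.97, adjusted p = 0.0172), and Notum to 0.156, 0.949, 0.598, 0.0341 and 0.0268 (-4.19 ± 1.11, adjusted p = 0.00817). Both overlapped the lowest primary tumours. Within shared identifier blocks the call of Lgr5 was lost (-2.34, adjusted p = 0.0597). The counts behind these levels were 1 to 9 reads of Lgr5 and 1 to 35 of Notum a library. Glul was at 169, 153, 121, 281 and 303 CPM (-1.63 ± 0.63, adjusted p = 0.0571) and Tbx3 at 1.83, 7.13, 2.76, 0.988 and 0.537 (-1.85 ± 0.71, adjusted p = 0.0554). Nkd1 was at 7.21 CPM in the lung metastasis and at 0.0681 to 0.74 in the other 4. The fit gave it a change of 0 ± 0.7 with that library and -2.32 (adjusted p = 0.00407) without it. Tbx3 was called without the lung metastasis too (-2.64, adjusted p = 0.0159), and Glul was called without PPTR tumours 10 and 11 (-1.77, adjusted p = 0.0356).

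The summed hepatocyte markers were 11400 to 51900 CPM in PPTR metastases against 39200 to 152000 in primary tumours, and 6 of 8 biliary markers rose. 9 of 12 other pericentral genes fell and 0 rose (median -3.04). The lung metastasis had 1800 CPM of summed lung epithelial markers against 3.95 to 51.6 in the other 4. The part of these markers in the changes above was not tested. The ligand Wnt10a (6.45 ± 0.62) and the secreted inhibitors Wif1 (5.89 ± 0.77) and Sfrp1 (4 ± 0.93) rose in the same comparison.

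**Figure D4:**
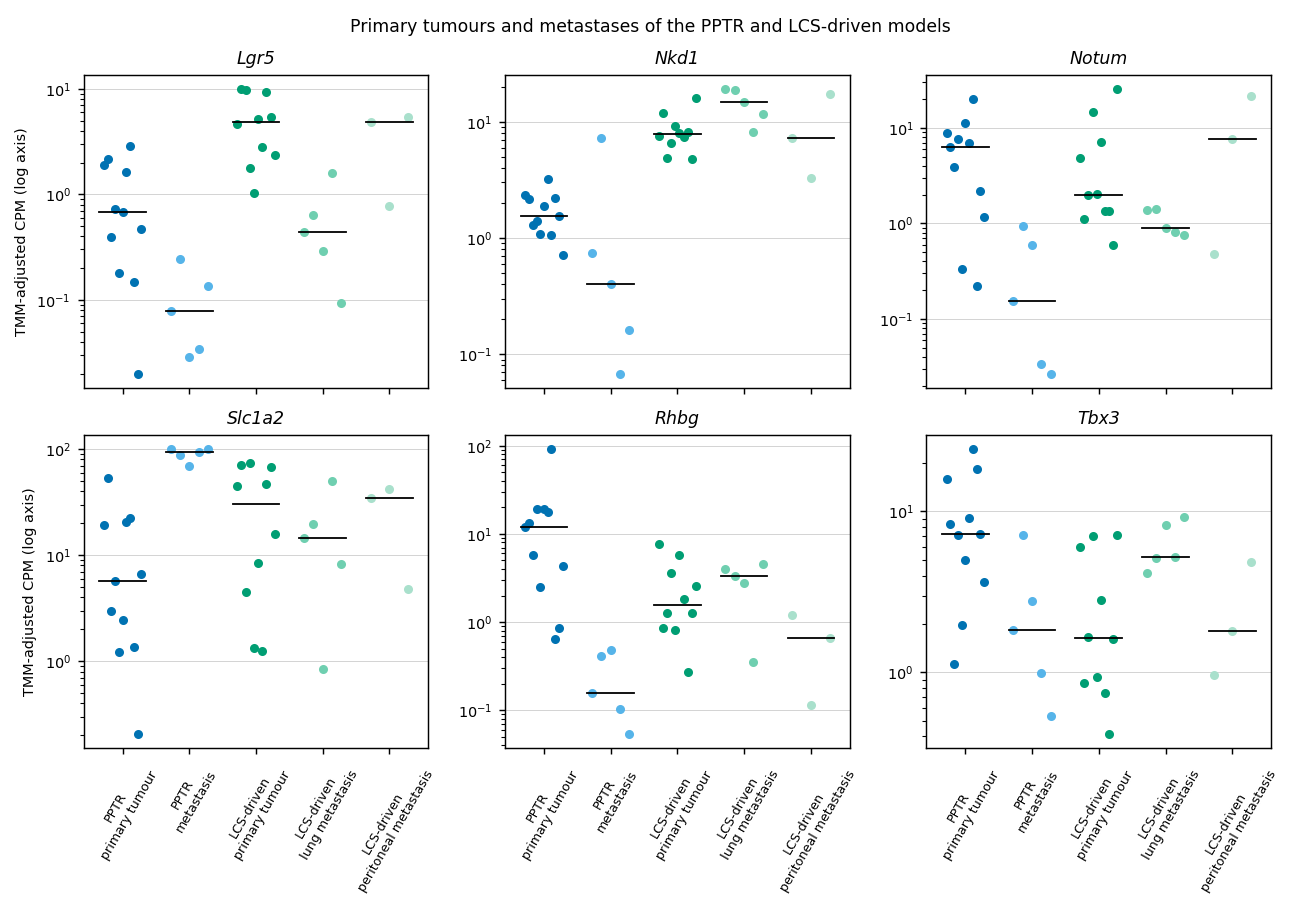
Level of 6 of the genes (TMM-adjusted CPM, log axis) in primary tumours and metastases of the PPTR and LCS-driven models, with 1 point per library, a bar at the group median and values under 0.02 CPM drawn at 0.02. Slc1a2 is at 68.7 to 100 CPM in all 5 PPTR metastases, above all 11 PPTR primary tumours, and Rhbg is under 0.5 CPM in the same 5.

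LCS-driven lung metastases had 1 gene higher and 2 lower of 10 than LCS-driven primary tumours, where 14.2% of 17432 genes were called, 6.65% higher and 7.58% lower. Lgr5 fell to 0.443, 0.63, 0.291, 1.6 and 0.0925 CPM from 1.04 to 10 (-3.11 ± 0.7, adjusted p = 0.00944), and metastasis 4 alone overlapped the primary tumours. Oat fell to 75, 63, 56, 88.6 and 135 CPM from 86.8 to 269 (-1.04 ± 0.29, adjusted p = 0.0267). Sp5 rose to 0.761, 0.658, 0.502, 1.13 and 0.855 CPM from 0.102 to 0.778 (1.34 ± 0.4, adjusted p = 0.0363). The groups overlapped for both. Nkd1 was at 19.2, 18.9, 14.7, 8.1 and 11.7 CPM against 4.8 to 15.9 (0.77 ± 0.27, adjusted p = 0.0682), and Notum at 1.38, 1.43, 0.899, 0.81 and 0.763 against 0.598 to 25.7 (-2.55 ± 0.88, adjusted p = 0.0651). The call of Sp5 was lost without metastasis 1, 2, 4 or 5 and that of Oat without metastasis 1, 2 or 3, and Nkd1 was called without metastasis 4 (0.92, adjusted p = 0.0305). Within identifier blocks 0 were called.

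Summed lung epithelial markers were 825 to 1920 CPM in these metastases against 0.846 to 8.44 in primary tumours, all 5 lung markers rose, and 8 of 12 other pericentral genes fell. Slc1a2, at 14.4, 19.8, 0.846, 50.1 and 8.34 CPM, was not called (-0.88 ± 0.97, adjusted p = 0.569), and Glul, at 175, 161, 89, 108 and 126 CPM, was not either (-0.45 ± 0.33, adjusted p = 0.364). In the 3 LCS-driven peritoneal metastases edgeR called 0 of 10 genes and 0% of 17760 genes tested, with 0 of the 10 at an unadjusted p under 0.05 and 0 by DESeq2. Over all genes 1720 had an unadjusted p under 0.05 and DESeq2 called 552, and leaving out any 1 of the 3 metastases also gave 0 calls among the 10. Axin2 was at 10.6, 8.45 and 25.6 CPM and Glul at 193, 203 and 121 CPM there.

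The difference between the models was tested in a fit with an interaction term, in which 20.7% of 18374 genes were called. The change from primary tumour to metastasis, in the LCS-driven model (lung and peritoneum together) minus the PPTR model, was -3.51 ± 1.19 for Slc1a2 (adjusted p = 0.0333), 5.93 ± 1.34 for Rhbg (adjusted p = 0.00188) and 2.58 ± 0.91 for Tbx3 (adjusted p = 0.0416). Those 3 genes were called, with differences of both signs. The pericentral genes Glul (1.33 ± 0.64, adjusted p = 0.14) and Oat (-1.41 ± 0.65, adjusted p = 0.121) were not called, so the calls did not cover that class as a whole. Axin2, Sp5 and Nkd1 were not called either. Notum had 3.66 ± 1.38 (adjusted p = 0.0559) and Lgr5 had 1.58 ± 1.13 (adjusted p = 0.335).

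In all 40 organoid libraries Glul, Oat, Slc1a2 and Rhbg lay below every liver, and so did Tbx3 but for 2 of the 4 HBS1_F2 organoids, whose levels ran from 0.388 to 20.8 CPM. The share of all genes that did so over the 40 was not counted. In normal liver organoids alone it was 24.6%. Axin2 and Lgr5 varied between libraries of the same line. Normal liver organoids had 7 of 10 genes lower than normal liver and 1 higher, where 74.1% of 15000 genes were called, 38.1% higher and 36% lower. Glul was at 74.8 to 257 CPM (median 146; -3.35 ± 0.34), Oat at 22.6 to 48.6 (median 37.7; -5.12 ± 0.46), Slc1a2 at 1.81 to 6.77 (median 2.96; -5.79 ± 0.46), Rhbg at 0.212 to 0.687 (median 0.399; -5.23 ± 0.38) and Tbx3 at 0.156 to 3.4 (median 0.877; -4.35 ± 0.71). For all 5 genes every organoid library lay below every liver, as it did for 24.6% of genes tested. Without normal liver 6 the number called was again 8, and with the share of ribosomal repeats as a covariate it was 3. That share was 0.256% to 0.72% in normal organoids and did not overlap the livers, so share and group cannot be told apart.

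Of the feedback genes, Nkd1 fell to 0 to 0.247 CPM, 0 to 7 reads a library in normal organoids (-6.21 ± 0.73), and Notum fell to 2.74 to 8.45 CPM (-2.2 ± 0.29). Sp5 rose, at 1.75 to 11 CPM (median 4.22; 1.87 ± 0.52, adjusted p = 0.00512). Organoid library 3 was the only one to share an identifier block with the livers, and within that block the change of Sp5 was 0.36. Axin2, at 0.983 to 17.3 CPM (-0.12 ± 0.63, adjusted p = 0.869), and Lgr5, at 2.47 to 42 (0.79 ± 0.69, adjusted p = 0.31), spread on both sides of liver. Organoid libraries 2 and 5 were high for 3 genes at once, with 16.6 and 17.3 CPM of Axin2, 42 and 17.1 of Lgr5, and 11 and 10.2 of Sp5. Of the other pericentral genes 11 of 12 fell (list median -12.42), 11 of 12 periportal genes fell, all 10 hepatocyte markers fell and all 8 biliary markers rose. Their part in the changes of the targets was not tested.

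Nkd1 stayed near 0 in tumour organoids as well, at 0 to 0.313 CPM in 19 LCS and 0 to 0.369 in 11 HBS organoid libraries. It was at 4.8 to 15.9 CPM in LCS-driven tumours and at 28.8 to 43.4 in PNR tumours 1 to 6. LCS organoids summed by line (5 lines) had 1 gene higher and 6 lower of 10 than LCS-driven primary tumours, where 60.5% of 17540 genes were called, 29.9% higher and 30.7% lower. Nkd1 was lower by 7.03 ± 0.6 (adjusted p = 2.4e-07), and Sp5 was higher, by 3.56 ± 0.51 (adjusted p = 2.97e-05). Rhbg (-1.66 ± 0.66) was lower, but lost its call without any 1 of the lines (adjusted p from 0.0547 to 0.0876). Axin2 (-0.64 ± 0.55, adjusted p = 0.33) and Lgr5 (-0.03 ± 0.67, adjusted p = 0.97) were not called. HBS organoids summed by line (6 lines) had all 10 genes lower than PNR tumours, where 66.1% of 17197 genes were called and 31.5% were lower. The differences ran from -2.64 ± 0.92 for Sp5 to -8.73 ± 1.32 for Nkd1, with -3.48 ± 0.75 for Axin2 and -8.29 ± 0.89 for Rhbg. All 10 stayed lower without PNR tumours 7 and 9, which is no independent test, as their low values set them apart.

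Against normal organoids, LCS organoids had 2 of 9 tested genes lower and 0 higher, where 5.11% of 15563 genes were called and 1.86% were lower. Notum fell by 3.36 ± 0.72 (adjusted p = 0.0235), from a median of 6.33 to 0.31 CPM, and Glul by 1.56 ± 0.34 (adjusted p = 0.0238), from 146 to 39.8. Both calls were lost without line LCS1 or without line LCS2, and that of Glul also without LCS3. The share of Rpl34-ps1 did not overlap between these groups, so share and group cannot be told apart. In HBS organoids against normal organoids 0 of 9 genes were called by edgeR, with 2 at an unadjusted p under 0.05 and 1 by DESeq2, where 0.0467% of 14994 genes were called, 0.00667% higher and 0.04% lower. Notum there had -2.61 ± 0.65 (adjusted p = 0.153) and Glul -1.18 ± 0.42 (adjusted p = 0.287). HBS and LCS organoids differed in 0 of 9 genes by edgeR, with 1 at an unadjusted p under 0.05 and 1 by DESeq2 (background 3.65% of 18039 genes, 0.898% higher and 2.76% lower). The 95% interval of Axin2 between them, from -1.47 to 1.38, does not exclude a change of 2-fold either way.

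The spread within lines was wide for Axin2 and Lgr5. In LCS3 the 4 libraries had 4.62, 20.8, 11.1 and 3.85 CPM of Axin2 and 3.02, 36.6, 18.5 and 6.7 of Lgr5. In LCS4 Axin2 was at 20.6, 20.3 and 2.25 CPM and Lgr5 at 15.8, 8.37 and 0.317. In LCS5 Axin2 was at 16.6 and 14 CPM in 2 libraries and 0.908 and 0.948 in the other 2, and Glul ran the other way, at 19.1 and 16.6 CPM in the first pair and 144 and 126 in the second. LCS1 was low in all 4 libraries, at 0.0721 to 2.13 CPM of Axin2. In HBS1, organoid library 4 had 38.2 CPM of Axin2 and 90.2 of Lgr5, against 1.88, 2.14 and 0.784 of Axin2 and 0.696, 0.763 and 0.392 of Lgr5 in the other 3. Its Axin2 and Lgr5 were the highest of all 40 organoid libraries, while its Glul, at 24 CPM, and its Tbx3, at 0.0339 CPM, were at the low end of HBS organoids.

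HBS1_F2 organoids had 3 of 9 genes higher and 0 lower than the 4 HBS1 organoid libraries, where 13.7% of 15601 genes were called, 8.02% higher and 5.63% lower. Each side is a single line, so the p-values measure the spread between libraries of a line. The lines share no identifier block, so block and line cannot be told apart. Glul was at 155, 153, 294 and 64.7 CPM against 38.2, 58.7, 24 and 23.2 (2.17 ± 0.49, adjusted p = 0.0278). Oat (1.54 ± 0.42, adjusted p = 0.0462) and Slc1a2 (2.83 ± 0.78, adjusted p = 0.0468) were higher too. Every HBS1_F2 library exceeded every HBS1 library for Glul and Slc1a2, which held for 11% of genes tested. Summed hepatocyte markers were 2700 to 5700 CPM in HBS1_F2 organoids against 80.8 to 152 in HBS1 organoids. Fibroblast and stellate markers were at 1.89 to 3070 CPM against 0.305 to 5.04. The part of these markers in the changes was not tested. Without HBS1_F2 organoid 2, the library that stood apart in Rpl34-ps1, 6 genes were called. With HBS1_F2 organoid 1 or 3, or HBS1 library 2, 3 or 5, left out 0 were called, and without HBS1_F2 organoid 4 there was 1.

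**Figure D5:**
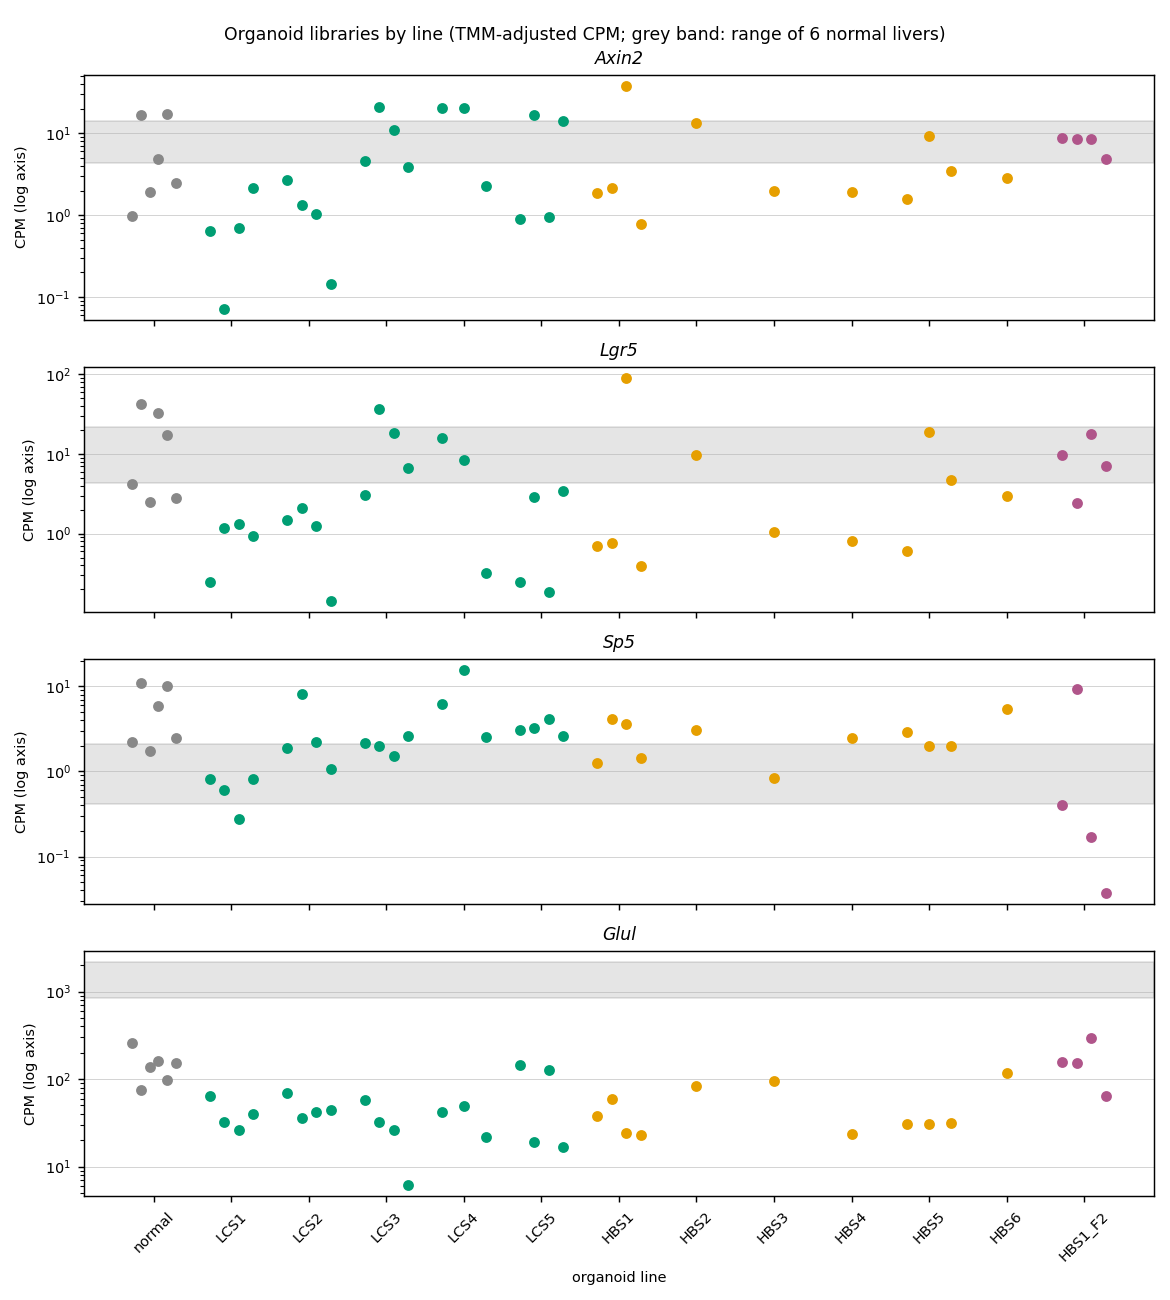
Axin2, Lgr5, Sp5 and Glul (TMM-adjusted CPM, log axis) in each organoid library by line, with 1 point per library and a grey band for the range of the 6 normal livers. Axin2 runs from below to above the band within LCS3, LCS4, LCS5 and HBS1, and Glul lies below the band in all 40 libraries.

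Over the 14 groups, ranked by median level, PNR primary tumours came first for all 10 genes. Their range, which includes tumours 7 and 9, overlapped that of the next group for each gene. The share of all genes for which PNR tumours ranked first was not counted. For Axin2 the next groups were LCS-driven peritoneal metastases (10.6 CPM), HBS1_F2 organoids (8.49) and LCS-driven primary tumours (7.78), whose ranges overlapped one another. PPTR metastases (1.63) were last. As a description over the 14 group means, which share their scaling, Axin2 was most like Arl15 (Pearson r of mean log2(CPM + 1) 0.809), Hcrtr2 (0.768), Csrp2 (0.765), Brd7 (0.756) and Lgr5 (0.726) among 12886 genes. Glul was most like its copy Glns-ps1 (0.954), which can share its reads, and Rfx4 (0.927), Mettl5 (0.918), Fmn2 (0.896) and Fam55b (0.89). Among the 10 genes, Glul had 0.86 with Tbx3 and 0.82 with Notum, Oat had 0.85 with Rhbg, and Nkd1 had 0.04 with Sp5.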

How the data were processed

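Per the labels' protocols, RNA was extracted with a Qiagen RNeasy Micro kit and sequenced as stranded total RNA. The deposited files hold raw counts of reads per gene, which the authors made from reads processed with BWA, STAR and HTSeq on mm9, per the submitters' processing notes. Their versions and order were not given in the sources used here, and the 5 special rows that name no gene were left out. Genes were filtered with filterByExpr (minimum count 10, minimum total 15) and tested with edgeR 4.0.16's quasi-likelihood test in R 4.3.3, with TMM scaling and Benjamini-Hochberg adjustment over all genes tested at 0.05. The standard errors given are the absolute log2 change divided by the square root of that test's F statistic, not a separate estimate. The 95% intervals took 1.96 of these errors on either side. LCS and HBS organoids were summed by line, except in HBS1_F2 against HBS1. DESeq2 1.42.0, no filter, other scalings, covariates, identifier blocks and single libraries left out were the alternatives. The omission of PNR tumours 7 and 9 or of normal liver 6, the library-total scaling and the interaction were chosen after seeing the data. Scripts were tested on simulated data. Pathway genes named are up to 4 called per list with the largest change, if the higher group averaged 5 CPM or more. The genes and lists were chosen with earlier results of these data known.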

Additional observations from a re-analysis of the deposited data

Results flagged for a closer look

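In 12 sets of 1 gene in 1 group, 1 library lay farther from the rest than Dixon's 95% limit. Chance flags about 1 in 20 groups, and 70 such sets were examined. Each value follows with that of the nearest library. PPTR metastasis 2, from lung, had 4.45 CPM of Axin2 (nearest 1.85) and 7.21 of Nkd1 (nearest 0.74). Normal liver 3 had 21.9 CPM of Lgr5 (nearest 7.68) and 68.7 of Tbx3 (nearest 21.6). Normal liver 6, which stood apart in Rpl34-ps1, had 2780 CPM of Oat (nearest 1330) and 348 of Slc1a2 (nearest 177). PNR tumour 8 had 50.5 CPM of Sp5 (nearest 24.4). HBS1_F2 organoid 2 had 9.41 CPM of Sp5 (nearest 0.405), and HBS1_F2 organoid 4 had 4.88 CPM of Axin2 (nearest 8.45). LCS-driven lung metastasis 5 had 5.89 CPM of Axin2 (nearest 7.24). PPTR metastasis 5, from within the liver, had 310 CPM of Oat (nearest 128). Normal liver organoid 2 had 0.247 CPM of Nkd1 (nearest 0.0624), from 7 reads.

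The change from primary tumour to metastasis differed between the LCS-driven and PPTR models for Slc1a2 (-3.51, adjusted p = 0.0333), Rhbg (5.93, adjusted p = 0.00188) and Tbx3 (2.58, adjusted p = 0.0416), by the interaction term in edgeR. Of all genes 20.7% were called in that fit, and the mix of sites differed between the models.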

How the results depend on the processing

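No paired analysis was possible because the labels carry no replicate numbers; blocks below are shared identifier numbers. Values are genes called of those tested. Adding the share of ribosomal repeats as a covariate, the calls against liver were 3 in PPTR, 0 in PNR and 4 in LCS-driven tumours and 3 in normal organoids. That share overlapped the livers only in PPTR tumours, so elsewhere it cannot be told apart from the group. Without PPTR tumours 10 and 11 there were 5 in PPTR, and without PNR tumours 7 and 9 there were 10 in PNR. With identifier blocks 0 were called in LCS against normal organoids and in LCS-driven lung metastases. For HBS1 tumours against PNR and against LCS-driven tumours, and normal organoids against liver, blocks left a single library on a side. No calls are counted there. DESeq2 called 1 in HBS against normal organoids, 1 in HBS against LCS organoids and 5 in lung metastases. Each organoid library as a replicate gave 2 and 1 in the same HBS comparisons. With matching PNR libraries summed, 1 was called in HBS1 tumours against PNR. Leaving out 1 library or line gave 0 to 2 calls in LCS and 0 to 1 in HBS against normal organoids, 1 to 3 in HBS1 tumours against PNR, 0 to 6 in HBS1_F2 against HBS1 organoids and 1 to 3 in lung metastases. The sign turned in PNR tumours with the covariate for Oat (-0.23) and Tbx3 (-1.95), and in LCS-driven tumours with library totals for Lgr5 (0.13). With blocks, in HBS1 tumours against PNR tumour 9 alone, it turned for Lgr5 (0.38), Sp5 (0.14), Notum (1.37), Slc1a2 (0.03) and Tbx3 (0.25). In PPTR metastases it turned for Axin2 with blocks (0.26), and Nkd1 was at 0.06 with DESeq2, 0 with no filter and 0.06 with RLE scaling, and -2.32 to 0.3 without single libraries. Rhbg in lung metastases was at -0.01 to 0.48 without single libraries. The cause was not tested. Library totals moved the median of all genes against liver from 0.03 to 0.5 in PPTR, 0.11 to 0.68 in PNR, 0.13 to 1.17 in LCS-driven tumours and 0.07 to 0.98 in normal organoids. Of the recomputed changes of single genes, 805 kept their direction and side of the threshold, 137 were weaker, 22 were stronger and 17 changed sign. No libraries of a group agreed within sampling noise. Low counts limit Nkd1 in organoids and Lgr5 and Notum in metastases.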
